A study of Mus musculus with 4 samples.

Results

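The effect of Sipa1 deficiency was compared between mesenchymal stroma cells (MSCs) and CD8+ T cells sorted from the same kind of Bcr-Abl+ tumor. For every gene measured on all 4 arrays, the Sipa1 KO minus wild-type (Wt) difference was taken within each cell type, and the CD8 T difference was then subtracted from the MSC difference. Of 22911 gene symbols on the array, 13766 passed the quality flags on all 4 arrays and entered the comparison. The 4 conditions were Wt MSCs, Sipa1 KO MSCs, Wt CD8 T cells and Sipa1 KO CD8 T cells, each measured on 1 array, so no difference had a replicate check, no test or p-value was computed, and the number of arrays limits the precision. All hosts were C57BL/6Ncr mice 8 weeks old, either wild type or Sipa1 knockout, and while the study used male and female mice, the sex behind each array was not given in the sources used here. Every host had received 15000 GFP+ Bcr-Abl+ hematopoietic progenitor cells in Matrigel under the skin, and tumors were collected on day 12. The leukemia cells of all groups came from Wt mice, so the Wt and Sipa1 KO conditions differed in the host and not in the injected cells. There were 5 mice per genotype, and the sources used here do not say whether an array held RNA of 1 mouse or of several. MSCs were gated as GFP- CD45- Ter119- CD31-, which selects them by what they lack, and CD8 T cells as GFP- TCRb+ CD8+.

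Sipa1 encodes a GTPase-activating protein that turns off Rap1, a small GTPase that controls integrin adhesion in lymphocytes and stromal cells. Tumor MSCs are fibroblast-like cells that lay down collagen matrix and release chemokines, and CD8 T cells are lymphocytes that kill target cells with granzymes and perforin. A gene that differs by genotype in only 1 of these populations can differ in expression per cell or in which cells the sort contained. In bulk RNA of sorted cells, fewer cells of a type and less RNA per cell cannot be told apart.

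Signals are given as log2 of the array intensity relative to the 75th percentile of the same array, so 0 is the level of a fairly bright probe, and differences are Sipa1 KO minus Wt on that log2 scale. Both Sipa1 probes were lower on the Sipa1 KO arrays of both cell types. Averaged over the probes, Sipa1 had a signal of 4.04 in Wt and 2.62 in KO MSCs, and of 4.42 in Wt and 2.56 in KO CD8 T cells. Its difference was -1.42 in MSCs against -1.86 in CD8 T cells, and the difference between them was 0.44. The CD8 T arrays carried T-cell transcripts, with Cd3d, a chain of the T-cell receptor complex, at 6.95 and 6.88 and Cd8b1, the CD8 beta chain, at 7.29 and 7.41. On the MSC arrays Cd3d was at -1.70 and -0.60 and Cd8b1 at -2.56 and -1.26, Wt first. All 4 arrays lay on 1 slide and were read in 1 scan.

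The genotype difference spread over many more genes in MSCs than in CD8 T cells. Its SD over genes was 1.03 in MSCs against 0.41 in CD8 T cells, and the central 50% of genes lay between -0.55 and 0.62 in MSCs and between -0.16 and 0.15 in CD8 T cells. The SD of repeat spots of 1 probe on 1 array was 0.041 at the median, which corresponds to 0.083 for the difference of the differences and covers spot noise only. At least 2-fold higher on the KO array were 2186 MSC genes (15.9%) and 358 CD8 T genes (2.6%). At least 2-fold lower were 1645 MSC genes (11.9%) and 189 CD8 T genes (1.37%). The balance of directions depended on the scaling. With each array shifted by its median instead of its 75th percentile, the median of all genes was -0.17 in both cell types and 47.0% of MSC genes past 2-fold were higher, against 57.1% in the main values, and in CD8 T cells 52.6% against 65.4%. With the authors' series matrix the medians were 0.17 (MSCs) and 0.11 (CD8 T cells) and the shares were 69.9% and 76.0%. With background modelled on the spot signal (normexp) the CD8 T share was 51.2%. The difference of the differences was less affected, its median over all genes being -0.02 in the main values, -0.01 after the median shift and 0.06 with the series matrix. Over the 13766 genes, which share arrays and probe design and are not independent, the MSC and CD8 T differences had a Pearson correlation of 0.36 and a Spearman correlation of 0.34.

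The genes fell into classes, in which a gene counted as moving in 1 cell type only when it was past 2-fold there and under 0.5 in size in the other. Higher in KO MSCs only were 1364 genes (9.91%), and lower in KO MSCs only were 1546 (11.2%). Higher in KO CD8 T cells only were 24 genes (0.174%), and lower in KO CD8 T cells only were 105 (0.763%). Past 2-fold in opposite directions were 22 genes (0.16%), of which 18 were higher in KO MSCs and lower in KO CD8 T cells (0.131%) and 4 were the other way round (0.0291%). The remaining genes past 2-fold in both cell types moved the same way, 310 of them higher (2.25%) and 23 lower (0.167%). The difference of the differences was at least 1 in 1779 genes (12.9%) and at most -1 in 1557 (11.3%).

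The 2 directions in CD8 T cells overlapped with MSCs very unequally. Of the 358 genes higher in KO CD8 T cells, 310 (86.6%) were also higher in KO MSCs, whereas these made up 14.2% of the 2186 genes higher in KO MSCs. Of the 189 genes lower in KO CD8 T cells, 23 (12.2%) were also lower in KO MSCs, and these made up 1.40% of the 1645 genes lower there. Over all genes, 15.9% were higher and 11.9% lower in KO MSCs, and 2.6% were higher and 1.37% lower in KO CD8 T cells. The overlap of the lower genes was thus near the share of all genes, and that of the higher genes was above it. Genes lower in KO CD8 T cells and level in MSCs were 105 of 189 (55.6%), whereas 24 of the 358 higher genes (6.70%) were level in MSCs. The share of higher genes found in both cell types stayed between 84.5% and 93.9% under the other scalings, normexp, the brightest probe and the bright genes alone, and was 81.5% with flags asked of 1 array of each cell type and 56.8% with no flags.

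**Figure D1:**
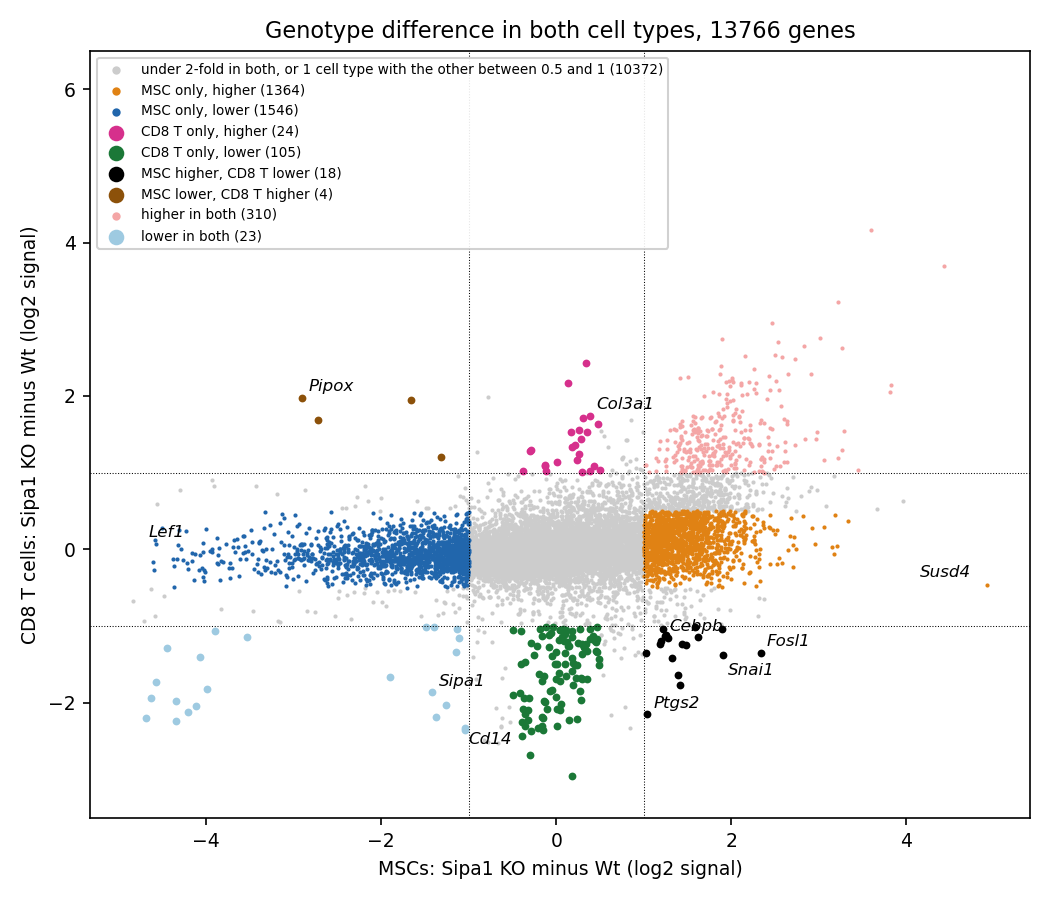
Each point is 1 of 13766 genes, with the Sipa1 KO minus Wt log2 difference in MSCs on the horizontal axis and in CD8 T cells on the vertical axis, and the dotted lines mark 2-fold. The 310 genes higher in both fill the upper right corner, the 1546 MSC-only lower genes lie along the left arm, and the 105 CD8-only lower genes hang below the centre.

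The stretch of 300 bases around the start of transcription is shown for 5 genes of the classes described here, chosen so that a match to each named motif is seen in place. They come from RefSeq on GRCm38.p6, run 5′ to 3′ in the direction of the gene from 250 bases before the start to 50 bases after it, and carry in capitals the matches named for each gene in the next sentences. Ptgs2 (chr1:150099781-150100080 on the plus strand) moved in opposite directions and has a match to TTGCGCAA, the C/EBP element, 69 bases before the start. Ccnb2 (chr9:70421505-70421804 on the minus strand), a mitotic cyclin, was lower in KO MSCs only and has 3 CCAAT boxes, 87, 54 and 21 bases before the start. Mcm3 (chr1:20820263-20820562 on the minus strand), a subunit of the replicative helicase, has TTTCCCGC, the E2F element, on the reverse strand 19 bases after the start and CCAAT boxes 117, 72 and 32 bases before it, the first of them on the reverse strand. Clec4e (chr6:123289822-123290121 on the minus strand) and S100a8 (chr3:90668821-90669120 on the plus strand), both myeloid genes, were lower in KO CD8 T cells only and have TATAAA, the TATA box, 29 and 30 bases before the start.
Ptgs2: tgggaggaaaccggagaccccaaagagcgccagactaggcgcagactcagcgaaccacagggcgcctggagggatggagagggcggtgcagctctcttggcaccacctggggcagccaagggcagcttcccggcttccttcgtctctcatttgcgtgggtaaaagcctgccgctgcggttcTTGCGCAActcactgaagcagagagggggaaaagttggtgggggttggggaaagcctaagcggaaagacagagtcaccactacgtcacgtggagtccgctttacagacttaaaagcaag
Ccnb2: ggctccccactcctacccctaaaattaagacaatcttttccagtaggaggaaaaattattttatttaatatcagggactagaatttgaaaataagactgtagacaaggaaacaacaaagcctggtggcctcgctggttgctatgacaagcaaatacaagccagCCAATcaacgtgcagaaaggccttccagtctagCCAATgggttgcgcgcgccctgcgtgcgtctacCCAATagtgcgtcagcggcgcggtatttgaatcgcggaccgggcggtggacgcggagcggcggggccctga
Mcm3: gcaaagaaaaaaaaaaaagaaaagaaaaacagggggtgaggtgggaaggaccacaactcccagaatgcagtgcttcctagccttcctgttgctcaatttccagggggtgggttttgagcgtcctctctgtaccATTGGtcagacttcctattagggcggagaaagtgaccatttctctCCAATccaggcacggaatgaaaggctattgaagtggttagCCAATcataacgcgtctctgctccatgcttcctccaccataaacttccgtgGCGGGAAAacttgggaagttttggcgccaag
Clec4e: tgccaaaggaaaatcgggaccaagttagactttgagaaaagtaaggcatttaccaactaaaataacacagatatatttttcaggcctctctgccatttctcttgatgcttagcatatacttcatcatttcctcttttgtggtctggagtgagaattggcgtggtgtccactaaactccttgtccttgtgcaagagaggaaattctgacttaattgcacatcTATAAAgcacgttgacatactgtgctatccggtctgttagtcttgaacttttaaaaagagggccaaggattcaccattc
S100a8: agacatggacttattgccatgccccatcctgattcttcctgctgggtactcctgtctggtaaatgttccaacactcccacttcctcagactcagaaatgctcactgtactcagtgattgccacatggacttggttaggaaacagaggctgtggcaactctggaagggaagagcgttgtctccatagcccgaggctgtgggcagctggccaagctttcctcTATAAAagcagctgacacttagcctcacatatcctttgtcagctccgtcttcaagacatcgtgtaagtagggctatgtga

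Of the 18 genes past 2-fold in both cell types, higher in KO MSCs and lower in KO CD8 T cells, 6 met the signal limit for naming. They were picked by that limit and not by the width of the gap. In each cell type the brighter of the 2 arrays was above the median gene of that array for these genes. Ptgs2, the inducible cyclooxygenase of prostaglandin synthesis, went from -0.49 (Wt) to 0.55 (KO) on the MSC arrays and from 1.40 to -0.75 on those of CD8 T cells. Its differences were 1.04 and -2.15, which are 3.19 apart. Jchain, which joins polymeric immunoglobulins, went from -1.30 to 0.13 on the MSC arrays and from 0.83 to -0.41 on those of CD8 T cells, a gap of 2.67 between the differences. In both genes the Wt level was higher in CD8 T cells and the KO level was higher in MSCs. Gda, guanine deaminase, went from 3.89 to 5.16 on the MSC arrays and from 2.31 to 1.15 on those of CD8 T cells, a gap of 2.43. Cebpb, a transcription factor of myeloid and inflammatory genes, went from 2.56 to 3.76 on the MSC arrays and from 3.17 to 1.97 on those of CD8 T cells, a gap of 2.39. G0s2, an inhibitor of lipid breakdown, went from 0.20 to 1.45 on the MSC arrays and from 1.24 to 0.12 on those of CD8 T cells, a gap of 2.37. Kcnj8, a potassium channel subunit of pericytes, went from 0.70 to 1.92 on the MSC arrays and from 1.36 to 0.33 on those of CD8 T cells, a gap of 2.26. Like Ptgs2, the genes Cebpb, G0s2 and Kcnj8 changed their order between the genotypes, with CD8 T cells higher in Wt and MSCs higher in KO. Each of the 6 genes rests on 1 probe. All 6 gaps were at least 2.13 under every other setting, the lowest being that of Kcnj8 with normexp.

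The other 12 genes of that orientation had lower signals in at least 1 cell type, and their gaps ran from 2.37 to 3.68. Among them Fosl1, an AP-1 subunit, had the widest gap of the 18 genes, going from -3.36 to -1.03 on the MSC arrays and from -2.92 to -4.27 on those of CD8 T cells. Thbs1, the matrix glycoprotein thrombospondin, went from -0.52 to 1.09 on the MSC arrays and from -0.35 to -1.49 on those of CD8 T cells. Rgs5, a regulator of G-protein signaling known from pericytes, went from -1.94 to -0.56 and from -1.89 to -3.53. These 3 genes, like the 4 of the next sentences, lay outside the signal limit of the naming rule, and Thbs1 and the 4 were singled out after their values were seen. In the reverse orientation there were 4 genes, Pipox, Rgs8, Rapgefl1 and Lmo7, with gaps of -4.88, -4.42, -3.60 and -2.53, all dim on the CD8 T arrays. Pipox, a peroxisomal oxidase, went from -0.82 to -3.73 on the MSC arrays and from -4.21 to -2.23 on those of CD8 T cells. Repeat spots of dim probes had an SD of 0.094 to 0.168 on these arrays.

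**Figure D2:**
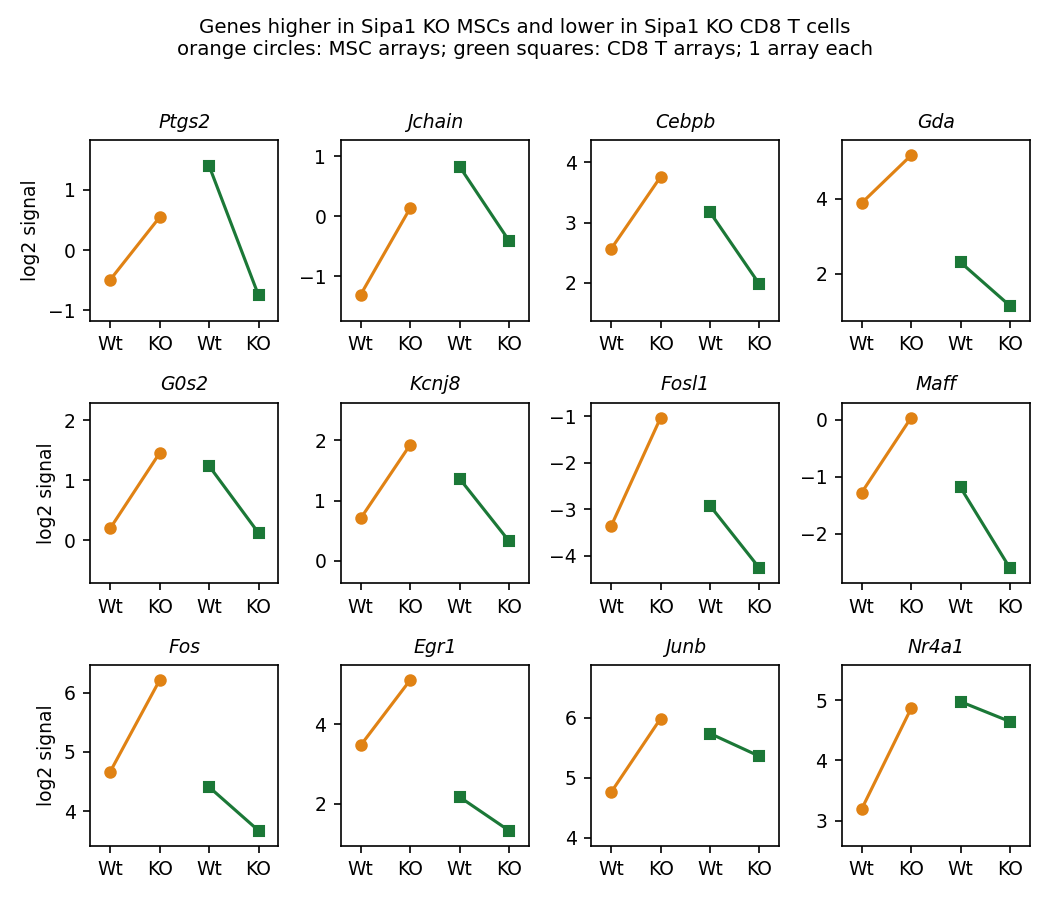
Log2 signal relative to the 75th percentile of the array for 12 genes, with Wt and Sipa1 KO MSC arrays as orange circles and Wt and Sipa1 KO CD8 T arrays as green squares, 1 array each and a vertical axis of its own for each gene. In all 12 panels the orange line goes up from Wt to KO and the green line goes down, by 1.04 and -2.15 for Ptgs2.

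Immediate early genes, which cells switch on within minutes of a stimulus, stood apart as a group. Of 37 genes listed, 34 were measured, and their median difference was 1.21 in MSCs against -0.26 in CD8 T cells, against -0.03 and -0.02 for all genes. Their median difference of differences was 1.54, with 22 of 34 at 1 or more and 3 at -1 or less, against 12.9% and 11.3% of all genes. In MSCs 21 were at least 2-fold higher and 3 lower, where 15.9% and 11.9% of all genes were. In CD8 T cells none was 2-fold higher and 3 were lower, where 2.6% and 1.37% of all genes were. Positive in MSCs and negative in CD8 T cells were 21 of the 34 (61.8%), against 20.3% of all genes. Junb, an AP-1 subunit, went from 4.76 to 5.98 on the MSC arrays and from 5.73 to 5.36 on those of CD8 T cells. Nfkbia, the inhibitor of NF-kB, went from 4.70 to 5.31 on the MSC arrays and from 5.50 to 5.06 on those of CD8 T cells. Jun went from 5.49 to 6.41 on the MSC arrays and from 4.89 to 4.83 on those of CD8 T cells, and Jund from 5.16 to 5.65 and from 5.20 to 5.26. The gap between the differences was thus 1.60 for Junb, 1.04 for Nfkbia, 0.98 for Jun and 0.43 for Jund. Fos and Egr1, chosen after their values were seen, had gaps of 2.28 and 2.49. Fos went from 4.67 to 6.21 on the MSC arrays and from 4.41 to 3.68 on those of CD8 T cells. The 3 members lower in KO MSCs, again chosen by their values, were Dusp2 at -3.40, Cd69 at -2.39 and Dusp6 at -1.75, of which Cd69 is an activation marker of leukocytes and Dusp2 and Dusp6 are MAP kinase phosphatases. Ptgs2, Maff and Fosl1 were the members past 2-fold in opposite directions. Maff, a small Maf transcription factor, went from -1.28 to 0.03 on the MSC arrays and from -1.19 to -2.61 on those of CD8 T cells. Cebpb and Ptgs2 are also used by myeloid cells, whose genes were lower on the KO CD8 T array, and the part of those cells in these differences was not tested.

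Genes lower in KO CD8 T cells only were led by myeloid genes. Of the 105, 23 (21.9%) were on the neutrophil list and 3 (2.86%) on the macrophage and monocyte list, against 0.225% and 0.283% of all genes. Cd14, the lipopolysaccharide co-receptor of monocytes, went from 3.23 to 0.80 in CD8 T cells (-2.43) and from 1.44 to 1.05 in MSCs (-0.39). Acod1, which makes itaconate in activated myeloid cells, went from 3.68 to 1.37 in CD8 T cells and from 1.50 to 1.14 in MSCs. Clec4e, the receptor Mincle, went from 2.43 to 0.13 in CD8 T cells and from 0.58 to 0.42 in MSCs. All of these were brighter on the Wt CD8 T array than on either MSC array, while on the KO CD8 T array Cd14 and Clec4e were below both MSC arrays. Hcar2, a receptor for hydroxycarboxylic acids, went from 2.38 to 0.07 in CD8 T cells and stayed at 0.13 on both MSC arrays. Wfdc21, a secreted whey acidic protein, went from 3.06 to 0.83 in CD8 T cells and from 3.53 to 3.67 in MSCs. Stfa2l1, a stefin, had differences of -2.33 in CD8 T cells and -0.21 in MSCs, and the near-identical receptors Mrgpra2a and Mrgpra2b had -2.35 and -2.37 in CD8 T cells and -0.15 and -0.29 in MSCs. These last 3 belong to families of close copies, and their probes may have measured more than 1 member.

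Of the neutrophil list, 31 of 34 genes were measured, with a median difference of 0.18 in MSCs against -1.50 in CD8 T cells and a median gap of 1.76. In CD8 T cells 26 of the 31 were at least 2-fold lower, against 1.37% of all genes. In MSCs 3 were higher and none lower, against 15.9% and 11.9% of all genes. The gap was 1 or more in 30 of 31, against 12.9% of all genes. S100a9 and S100a8, the subunits of calprotectin, went from 8.38 to 7.33 and from 6.99 to 5.52 in CD8 T cells, and from 8.40 to 8.50 and from 7.21 to 7.39 in MSCs. Camp, the cathelicidin of secondary granules, went from 4.96 to 3.84 in CD8 T cells and from 6.46 to 6.97 in MSCs. Signal of these neutrophil genes was thus present on the arrays of both sorted populations, although neither gate selects neutrophils. The 5 measured members that were not 2-fold lower in KO CD8 T cells, chosen by that fact, were Mpo, Elane and Prtn3, which encode enzymes of the primary granules of immature cells, with Cebpe, a granulocyte transcription factor, and Csf3r, the G-CSF receptor. Mpo had a difference of 2.13 in MSCs against 0.16 in CD8 T cells, and Elane had 1.57 and 0.04. The summed signal of the measured list, on the log2 scale, was 9.67 and 9.85 for MSCs and 9.47 and 8.49 for CD8 T cells, Wt first.

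Beyond neutrophils, the macrophage and monocyte list was divided. In CD8 T cells 4 of 39 measured genes were 2-fold lower and 1 was higher, while in MSCs 13 were higher and none lower. Over all genes, 1.37% were lower and 2.6% higher in CD8 T cells, and 15.9% were higher and 11.9% lower in MSCs. Its median was 0.46 in MSCs against 0.09 in CD8 T cells, the latter being -0.06 after the median shift, with a median gap of 0.85. The erythroid list had a median of -0.72 in CD8 T cells, with 10 of 23 measured genes 2-fold lower, and with normexp the median was -0.29 and the median gap 0.16 instead of 0.48. In MSCs none was past 2-fold, and the median was -0.14, or 0.07 with the series matrix. Hba-a2, an alpha globin, went from 4.02 to 2.89 in CD8 T cells and from 8.64 to 8.71 in MSCs, and Hbb-bt, a beta globin, from 2.62 to 1.37 and from 7.95 to 8.10. Globin signal was thus high on the MSC arrays, although that gate was negative for Ter119. The globin genes are near-identical copies, so their probes may not tell them apart. The neutrophil, macrophage and mast cell lists together gave 26 of the 105 genes (24.8%) lower in KO CD8 T cells only, against 0.588% of all genes, and the erythroid list gave 9 (8.57%), against 0.167%. Whether these transcripts came from other cells in the sort was not tested.

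Genes of the T cells themselves are set against the background in CD8 T cells, where 3.97% of all genes were past 2-fold in either direction. Of 21 measured T-cell receptor and signaling genes none was past 2-fold there, and their median was 0.00 (-0.14 after the median shift). Of 22 cytotoxic effector genes none was past 2-fold, with a median of 0.12 that turned to -0.02 after the median shift. Of 21 genes of naive and memory T cells none was past 2-fold, with a median of -0.13. The inhibitory receptor and exhaustion list had 3 of 17 higher, where 2.6% of all genes were, and none lower, with a median of 0.48. In MSCs the same 4 lists had 5, 8, 5 and 9 genes higher and 8, 0, 6 and 1 lower, where 15.9% of all genes were higher and 11.9% lower.

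Genes higher in KO CD8 T cells only included 3 of the main fibrillar collagen chains. Col3a1 went from 2.93 to 4.68 in CD8 T cells and from 7.32 to 7.70 in MSCs. Col1a1 went from 2.74 to 4.29 in CD8 T cells and from 6.88 to 7.15 in MSCs, and Col1a2 from 4.24 to 5.77 and from 8.56 to 8.91. On all 4 arrays the collagens were thus far brighter in MSCs, and the genotype difference was larger where the level was lower, with gaps of -1.36, -1.29 and -1.19. Entpd1, the ectonucleotidase CD39 found on exhausted and regulatory T cells, went from -0.98 to 0.04 in CD8 T cells and from -0.63 to -0.75 in MSCs. Nod2, a sensor of bacterial wall fragments, went from -1.64 to 0.00 in CD8 T cells and from -2.71 to -2.23 in MSCs. Cd209e, Gemin5 and Gfra2 completed the named genes. Their differences were 1.37, 1.09 and 1.03 in CD8 T cells and 0.21, -0.13 and -0.38 in MSCs. Cd209e was dim on the MSC arrays, at -5.40 (Wt) and -5.19 (KO), so its small difference there rests on low signal.

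The fibroblast and matrix list was above 0 throughout in both cell types, although single members differed in size between them. Of its 44 measured genes all 44 were above 0 in both, where 48.6% of all genes were above 0 in MSCs and 45.4% for CD8 T cells, and 33 had a gap above 0, against 49.3% of all genes. At the 2-fold limit 39 were higher in KO MSCs and 38 in KO CD8 T cells, against 15.9% and 2.6% of all genes. In the class higher in both were 33 (75%), which made up 10.6% of it against 0.32% of all genes. The medians were 1.78 in MSCs and 1.43 in CD8 T cells, with a median gap of 0.34. At a gap of 1 or more were 5 genes and at -1 or less 3, where 12.9% and 11.3% of all genes were. Sparc, a matrix glycoprotein, went from 7.84 to 8.64 on the MSC arrays and from 3.93 to 5.35 on those of CD8 T cells, and Dcn, the proteoglycan decorin, from 7.71 to 8.57 and from 2.63 to 4.31. Thy1, which marks both fibroblasts and mouse T cells, differed in MSCs only, going from 5.41 to 6.55, and was at 7.37 and 7.46 on the CD8 T arrays. The summed signal of the list was 10.7 and 11.8 on the MSC arrays and 7.91 and 8.59 on the CD8 T arrays, Wt first. Across the 310 genes higher in both, the median signal was 3.14 on the KO MSC array and -1.87 on the KO CD8 T array. Whether MSC transcripts in the CD8 T sort account for the shared genes was not tested.

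**Figure D3:**
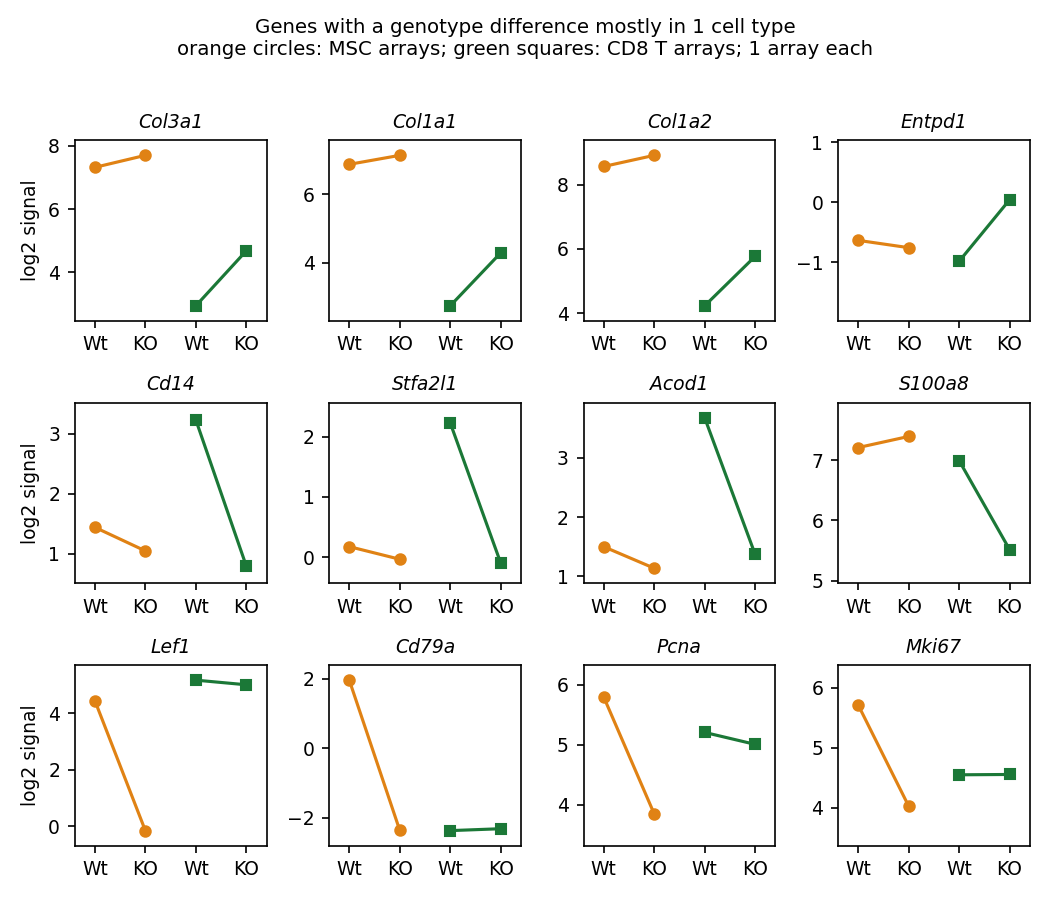
Log2 signal relative to the 75th percentile of the array for 12 genes, Wt and Sipa1 KO, with MSC arrays as orange circles and CD8 T arrays as green squares, 1 array each and a vertical axis of its own for each gene. The collagens and Entpd1 go up in the green line, Cd14, Stfa2l1, Acod1 and S100a8 go down in the green line, and Lef1, Cd79a, Pcna and Mki67 go down in the orange line, by 4.61 for Lef1.

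Genes lower in KO MSCs only were led by lymphoid genes. Lef1, a transcription factor of lymphoid progenitors and T cells, went from 4.46 to -0.15 in MSCs and stayed at 5.18 and 5.02 on the CD8 T arrays. Cd79a, the signaling chain of the B-cell receptor, went from 1.96 to -2.37 in MSCs and was at -2.38 and -2.32 on the CD8 T arrays. Sit1, an adaptor of lymphocyte signaling, went from 1.83 to -2.50 in MSCs and was at 2.02 and 1.90 on the CD8 T arrays. Thus Lef1 and Sit1 were expressed in CD8 T cells without a 2-fold difference, while Cd79a was as low there as on the KO MSC array. Fcrla and Niban3, both known from B cells, had differences of -4.59 and -4.29 in MSCs and 0.13 and 0.01 in CD8 T cells. Bfsp2, Capsl and Sh2d5 made up the rest of the named genes, with differences from -4.60 to -4.37 on the MSC arrays and from -0.27 to 0.28 on those of CD8 T cells.

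Of the B-lineage list, 25 of 28 genes were measured. At least 2-fold lower were 23 in MSCs and 4 in CD8 T cells, against 11.9% and 1.37% of all genes. The list had a median of -4.12 in MSCs against -0.04 in CD8 T cells, the latter 0.09 with the series matrix. Its median gap was -2.96. Cd79b, the partner of Cd79a, went from 6.65 to 2.49 on the MSC arrays and from 3.45 to 3.41 on those of CD8 T cells. Il7r, the IL-7 receptor used by both B-cell progenitors and T cells, went from 3.58 to -0.58 on the MSC arrays and from 5.55 to 5.40 on those of CD8 T cells. The 4 members lower in both cell types, named for that reason, were Vpreb1, Vpreb2 and Igll1, which encode the surrogate light chain of B-cell progenitors, and the related Vpreb3. Vpreb1 had differences of -4.12 in MSCs against -2.04 in CD8 T cells, Vpreb2 had -4.58 and -1.73, Vpreb3 had -3.99 and -1.82, and Igll1 had -4.69 and -2.21. They were 4 of the 23 genes in the class lower in both (17.4%), where the list held 0.182% of all genes. The summed signal of the list was 9.90 and 6.86 on the MSC arrays and 7.37 and 7.21 on the CD8 T arrays, Wt first.

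Genes of the common leukocyte list were lower in KO MSCs by a median of 1.85, although the MSC gate was negative for CD45. Of 29 measured, 23 were at least 2-fold lower there, against 11.9% of all genes. In CD8 T cells none was past 2-fold, where 3.97% of all genes were, and the median was -0.08, or 0.05 with the series matrix. Coro1a, an actin regulator of leukocytes, went from 6.18 to 3.62 on the MSC arrays and from 7.44 to 7.36 on those of CD8 T cells, and Rac2, a leukocyte GTPase, from 4.91 to 2.70 and from 6.33 to 6.28. Cd52 had differences of -0.82 and -0.03. The part of leukocyte RNA in the MSC differences was not tested.

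Proliferation genes were also lower in KO MSCs and near level in CD8 T cells. Over all genes, 11.9% were 2-fold lower in MSCs and 1.37% in CD8 T cells. In the DNA replication list 38 of 43 measured genes were 2-fold lower in MSCs and none in CD8 T cells. The medians were -1.71 and -0.14, with a median gap of -1.56. Pcna, the sliding clamp of DNA polymerase, went from 5.79 to 3.85 on the MSC arrays and from 5.21 to 5.01 on those of CD8 T cells. Mcm4, a helicase subunit, went from 4.50 to 2.79 on the MSC arrays and from 4.31 to 4.10 on those of CD8 T cells. Its partner Mcm3, described for the promoter shown, went from 3.48 to 1.19 for MSCs and from 3.01 to 2.85 for CD8 T cells. In the mitosis and spindle list 43 of 45 measured genes were 2-fold lower in MSCs and none in CD8 T cells, with medians of -1.99 and -0.06, the latter 0.08 with the series matrix, and a median gap of -1.89. Mki67, the proliferation antigen Ki-67, went from 5.71 to 4.03 on the MSC arrays and from 4.55 to 4.56 on those of CD8 T cells, and Ccnb2 from 4.88 to 2.86 and from 3.78 to 3.63. On the CD8 T arrays these named genes were bright in both genotypes. The B-lineage, leukocyte, replication and mitosis lists together held 142 measured genes, of which 121 (85.2%) were lower in KO MSCs only, and these made up 7.83% of that class against 1.03% of all genes. Proliferation and B-lineage genes moved together on the MSC arrays, and what the B-lineage signal contributes to the proliferation genes was not tested.

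Genes higher in KO MSCs only were led by a varied group. Susd4, a complement regulator, went from -4.52 to 0.40 on the MSC arrays and from -1.77 to -2.23 on those of CD8 T cells, a gap of 5.39, which was 3.49 with no flags and 3.39 with normexp. F3, the tissue factor that starts coagulation, went from 1.26 to 4.08 on the MSC arrays and from -1.72 to -1.28 on those of CD8 T cells. Daglb, a lipase of endocannabinoid synthesis, went from 0.44 to 3.77 on the MSC arrays and from -0.31 to 0.07 on those of CD8 T cells. Mrgprg, Stmn4, Rgs11, Miat and Slc7a8 had differences between 2.68 and 3.15 in MSCs and between 0.03 and 0.41 in CD8 T cells. Rgs11, a regulator of G-protein signaling, was at 1.80 and 2.08 on the CD8 T arrays, above both MSC arrays at -2.04 and 0.88.

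Chemokines were higher in KO MSCs and varied in CD8 T cells. Of 27 measured, 16 were 2-fold higher and 1 lower in MSCs, against 15.9% and 11.9% of all genes. On the CD8 T side 3 were 2-fold higher, against 2.6% of all genes. Chemokine medians were 1.21 (MSCs) and 0.13 (CD8 T cells), the latter -0.01 after the median shift, with a median gap of 0.77. With no flags the MSC median was 0.71 over 34 genes. Ccl5, a T-cell chemokine, went from 1.91 to 3.32 on the MSC arrays and from 8.23 to 8.14 on those of CD8 T cells. Ccl2, which attracts monocytes, went from 4.76 to 6.16 on the MSC arrays and from 1.20 to 1.39 on those of CD8 T cells. Ccl8 had differences of 2.39 and 0.85, and Cxcl9, an interferon-induced ligand of CXCR3, of 2.25 and 0.56.

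The interferon-stimulated list was mixed, with a median of 0.26 in MSCs against -0.29 in CD8 T cells and a median gap of 0.51 over 41 genes. Of these, 19 (46.3%) were positive in MSCs and negative in CD8 T cells, against 20.3% of all genes. A gap of 1 or more was seen in 12 (29.3%), against 12.9% of all genes. Past 2-fold, 2 were higher and 1 lower in MSCs, where 15.9% and 11.9% of all genes were. In CD8 T cells 1 was higher and 2 lower, where 2.6% and 1.37% of all genes were. Isg15, a ubiquitin-like protein, went from 4.42 to 4.77 on the MSC arrays and from 4.49 to 3.54 on those of CD8 T cells, and Ifitm3, an antiviral membrane protein, from 5.13 to 6.06 and from 3.35 to 2.83. The immunoproteasome subunits went the other way, Psmb9 with -0.96 in MSCs against 0.27 in CD8 T cells and Psmb8 with -0.50 and 0.09. The 2 genes 2-fold lower in CD8 T cells were Rsad2 at -1.84 and Oas2 at -1.17, and Xaf1 was higher by 2.57 in MSCs against 2.51 in CD8 T cells, all 3 named for passing 2-fold.

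The genes around Rap1, the target of Sipa1, had more members past 2-fold lower than higher in KO MSCs. Of 28 measured genes, 3 were higher and 7 (25%) lower in MSCs, where 15.9% of all genes were higher and 11.9% lower. None passed 2-fold in CD8 T cells, where 3.97% of all genes did. The gap was -1 or less in 7 genes (25%), against 11.3% of all genes, and 1 or more in 2 genes (7.14%), against 12.9%. The median was 0.02 in MSCs, which was -0.12 after the median shift, and -0.10 in CD8 T cells, which was 0.04 with the series matrix. Rap1b, one of the Rap1 GTPases, went from 2.99 to 3.55 on the MSC arrays and from 4.48 to 4.36 on those of CD8 T cells. Apbb1ip, the Rap1 effector RIAM, had differences of 0.09 and -0.22, and Tln1, the integrin activator talin, of -0.16 and 0.04. Rasgrp2, an exchange factor that activates Rap1, went from 4.01 to 0.29 on the MSC arrays and from 2.87 to 2.49 on those of CD8 T cells. Integrins had 8 of 19 higher and 2 lower in MSCs, against 15.9% and 11.9% of all genes. On the CD8 T side 2 integrins were higher, against 2.6% of all genes. Integrin medians were 0.71 (MSCs) and 0.08 (CD8 T cells), the latter -0.07 after the median shift.

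**Figure D4:**
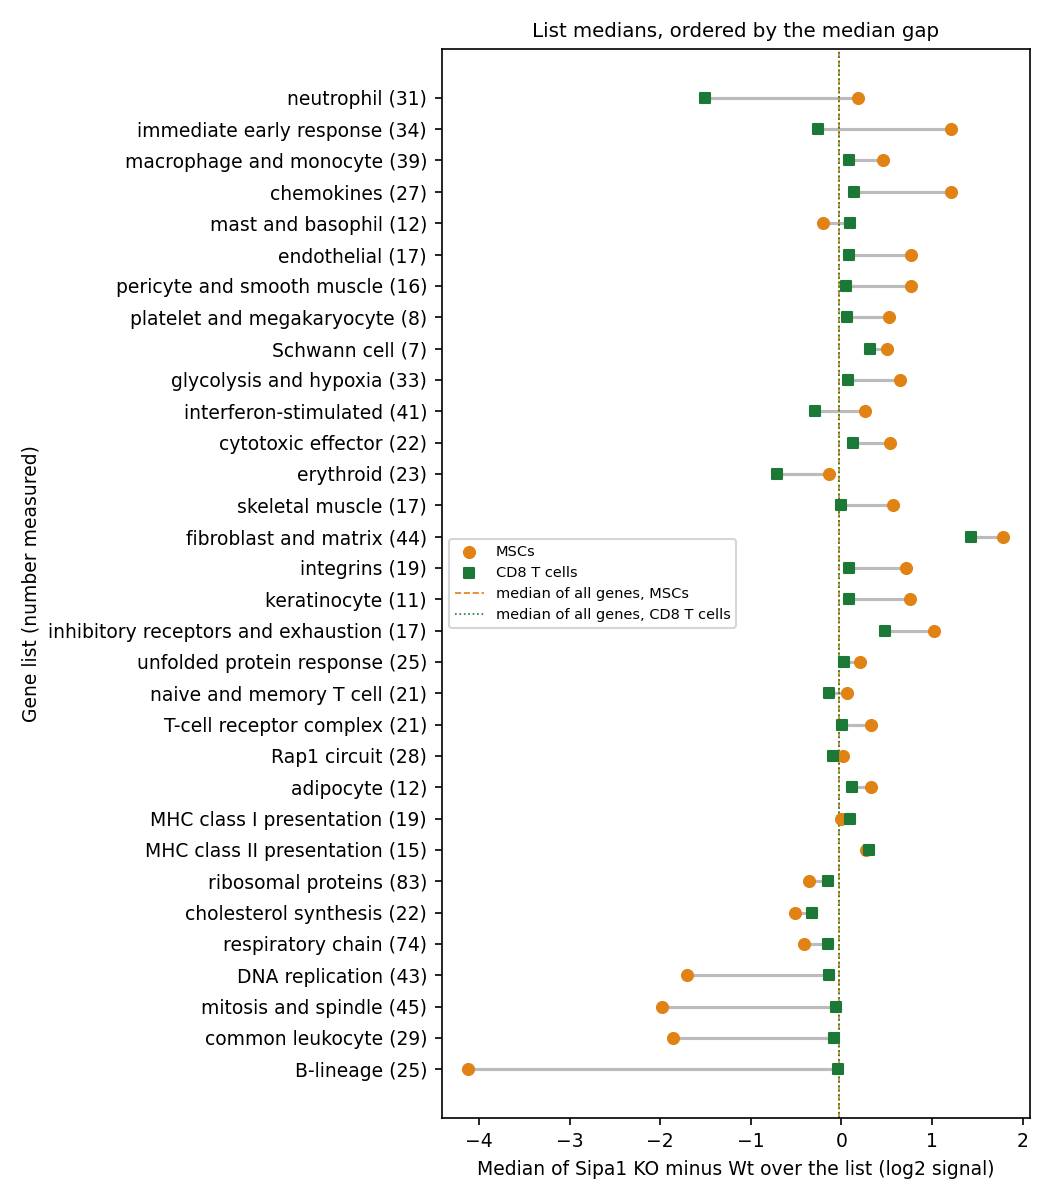
Median Sipa1 KO minus Wt log2 difference of each gene list in MSCs (orange circles) and CD8 T cells (green squares), ordered by the median of the difference of the differences, with the number of measured genes in brackets and the medians of all genes as vertical lines near 0. Neutrophil and immediate early genes stand at the top with median gaps of 1.76 and 1.54, and B-lineage genes at the bottom with -2.96.

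Large housekeeping groups showed small gaps. The median gap was -0.21 over 83 ribosomal protein genes, with medians of -0.36 in MSCs against -0.14 in CD8 T cells, and -0.26 over 74 respiratory chain genes, with medians of -0.41 and -0.15. Both groups were below 0 together in the 2 cell types, for 76 ribosomal protein genes (91.6%) and 69 respiratory chain genes (93.2%), against 34.3% of all genes. The medians of both groups stayed below 0 in both cell types under the other scalings and normexp, but some came near 0. After quantile normalization the ribosomal protein median was -0.10 in MSCs and -0.0277 in CD8 T cells. With the series matrix the CD8 T medians were -0.0116 for ribosomal protein and -0.0202 for respiratory chain genes. The shares of 91.6% and 93.2% were counted in the main values only. Glycolysis and hypoxia genes had medians of 0.65 and 0.07, the latter -0.07 after the median shift, and 12 of 33 were 2-fold higher in MSCs against 1 in CD8 T cells. The shares of all genes that were 2-fold higher were 15.9% in MSCs and 2.6% in CD8 T cells.

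Promoter matches were counted for 6 motifs on both strands, the CRE (TGACGTCA), the AP-1 site (TGANTCA), the E2F element, the C/EBP element, the TATA box and CCAAT, none of which contains another. A gene counted when any of its listed starts had a match. Of the 1546 genes lower in KO MSCs only, 1243 had a promoter in the table, and 5.63% of these held the E2F element and 50.8% a CCAAT box. Among the measured genes, 10930 of 13766 had a promoter, and the shares were 2.23% and 42.7%, and among all 27025 genes with a promoter, measured here or not, they were 1.24% and 41.1%. In the mitosis list 27 of 38 genes with a promoter (71.1%) held a CCAAT box, as Ccnb2 does 3 times, and in the DNA replication list 6 of 35 (17.1%) held the E2F element, as Mcm3 does. In the neutrophil list 8 of 28 (28.6%) held the TATA box, against 9.84% of the measured genes with a promoter and 15.7% of all genes with one. The C/EBP element of Ptgs2 occurred in 0.302% of the measured genes with a promoter and 0.207% of all genes with one. Of the 105 genes lower in KO CD8 T cells only, 83 had a promoter, and of the 34 immediate early genes 24, so shares over these sets are not given. A match is a description of letters and not of a bound site.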

How the data were processed

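Total RNA of MSCs and CD8 T cells from the tumors of both genotypes was labelled with Cy3 and hybridized to 1-color Agilent arrays. The deposited scanner values are spot intensities that the authors' Feature Extraction software (9.1 per the labels, 12.0.3.1 in the headers) had corrected for background and not normalized between arrays. The series matrix deposited by the authors holds these intensities on a linear scale, multiplied on each array by a single constant whose origin is not given in the sources used here, with no centring. From the deposited intensities, log2 values were taken minus each array's 75th percentile over 59305 spots that are not controls. Between 59.7% and 64.3% of these spots passed the flags (not saturated, uniform, well above background) and 0 were saturated. Spots with a symbol, matched by accession to a RefSeq table of GRCm38.p6, were 57.6%. Repeat spots were averaged per probe, and probes per gene, giving 19796 probes of 13766 genes.

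Named were Sipa1 and up to 8 genes per class and direction with the largest differences, with clone names left out and probes of 1 sign. In each cell type where such a gene was past 2-fold, the brighter array had to be above its median gene. Of each list, the 2 to 4 brightest members and those past 2-fold in opposite directions were also named. The comparison, its 32 gene lists and this rule were chosen with earlier results of these data known. The sorting of genes into classes was checked on simulated data, in which 200 of 200 changed genes over 13766 genes were recovered. The changes put in were well past 2-fold and the noise was small, so full recovery followed from the setting. The check therefore says nothing of counts near the 2-fold limit. Values were computed with pandas 2.3.3 and numpy 2.4.6 in Python 3.11.15, and limma 3.58.1 in R 4.3.3 served for normexp with an offset of 50. That correction used the median spot signal, because the files read here give no mean spot signal. Alternatives were other flags, other scalings, normexp, the brightest probe, bright genes only, and other limits for the classes.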

Additional observations from a re-analysis of the deposited data

Results flagged for a closer look

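With 1 array per condition, none of these differences was tested. The 2 cell types went opposite ways past 2-fold for 22 genes, of which the 10 named by rule or by their small number are given here. The MSC difference minus the CD8 T difference was 3.19 for Ptgs2, 2.67 for Jchain, 2.43 for Gda, 2.39 for Cebpb, 2.37 for G0s2 and 2.26 for Kcnj8, which were higher in KO MSCs and lower in KO CD8 T cells. It was -4.88 for Pipox, -4.42 for Rgs8, -3.60 for Rapgefl1 and -2.53 for Lmo7, which were lower in KO MSCs and higher in KO CD8 T cells.

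For 5 gene lists the medians lay on opposite sides of 0 in the 2 cell types. The median of the difference of the differences was 1.76 for neutrophil genes, 1.54 for immediate early genes, 0.75 for mast cell and basophil genes, 0.51 for interferon-stimulated genes and 0.20 for naive and memory T-cell genes. Lists within 0.059 of 0 in either cell type, the repeat-spot SD of a difference of 2 arrays for 1 probe, were left out, and that limit says nothing of the spread between mice. For mast cell genes the value is positive although the list's median was lower in MSCs (-0.21) than in CD8 T cells (0.10). Their MSC median was 0.11 with flags asked of 1 array of each cell type, 0.03 with no flags and 0.0003 with the series matrix, their CD8 T median was -0.05 after the median shift, and their gap was 0.26 with normexp. The MSC median of the naive and memory list was 0.06 and turned to -0.07 after the same shift.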

How the results depend on the processing

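The comparison has 1 array per condition, so spot noise is the only error measured and the spread between mice is unknown. No paired analysis was possible because a single array was made of every condition. Among genes with more than 1 probe (4778), the median range of the probes' difference of differences was 0.28, and the 90th percentile was 0.92. Of 646 alternative values, 495 stayed within the spread set for them, which was 0.083 for gaps and a fixed ratio for counts. This number does not measure stability, because part of it was fixed in advance. The median shift and the series matrix each moved all gaps by a single constant below that limit. A gene with 1 probe kept its gap with the brightest probe, and every gene left among the bright genes kept its gap there.

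Counts followed how many genes entered. With flags asked of at least 1 array of each cell type there were 46 genes higher in CD8 T cells only, 51 higher in MSCs and lower in CD8 T cells, 12 the reverse, 484 higher in both and 52 lower in both. With no flags the counts were 2398 (MSCs only, higher), 232 and 295 (CD8 T only, higher and lower), 121 and 55 (opposite), 602 and 96 (both), and 3510 and 2596 for a gap past 1. Among the 6883 brightest genes, those above the median of mean signal, the counts were 534 and 883 (MSCs only), 5 and 47 (CD8 T only), 7 and 0 (opposite), 153 and 8 (both), and 662 and 786. With normexp they were 9 and 63 (CD8 T only), 6 and 2 (opposite), and 87 and 10 (both), and the cause was not tested. Lower in both were 37 genes after the median shift and 15 with the series matrix. With under 1 in the other cell type counted as level, 44 genes were higher in CD8 T cells only.

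The median gap of the fibroblast list was 0.22 with no flags, 0.74 after quantile normalization, 0.79 with normexp and 0.23 in bright genes. With normexp it was 0.52 for chemokines, -3.06 for B-lineage, -1.45 for replication, -1.75 for mitosis, 1.55 for neutrophil, 0.53 for macrophage and 1.40 for immediate early genes. In bright genes it was 0.87 for chemokines, -3.31 for B-lineage and 1.38 for immediate early genes. It was 1.87 for neutrophil genes after quantile normalization, and -3.18 and -3.78 for B-lineage genes with fewer and with no flags. Signs turned in bright genes for Rap1 (-0.0288), integrins (-0.0561), exhaustion (-0.0537), naive and memory (-0.0149) and keratinocyte genes (-0.88), with normexp for exhaustion (-0.19), and with no flags for mast cell genes (-0.0453). Medians near 0 also turned, for adipocyte genes from 0.03 to -0.21 in bright genes (2 left), and for MHC class I genes from -0.01 to 0.02 in bright genes, 0.06 with the series matrix and with normexp, and 0.0013 with the brightest probe. The cause was not tested.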

Other observations

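Genes measured in only 1 cell type could not enter the comparison. There were 974 genes measured on both MSC arrays and not well above background on either CD8 T array, with a median difference of 1.04. At least 2-fold higher in KO MSCs were 503 and lower were 54, where 15.9% and 11.9% of the 13766 compared genes were. Rag2, a recombinase subunit of developing lymphocytes, went from 0.79 to -5.02 and Fcrl6, an Fc receptor-like gene, from -0.08 to -5.64. Tro went from -3.01 to 0.52, Dnm3os, a long noncoding RNA known from mesenchyme, from -2.92 to 0.58, and Irx3, a homeobox gene, from -2.78 to 0.05.

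Measured on both CD8 T arrays and not well above background on either MSC array were 192 genes, with a median difference of 0.07. At least 2-fold higher in KO cells were 9 and lower were 9, where 2.6% and 1.37% of the compared genes were. Gzmk, a granzyme, went from 1.45 to 2.30, Tigit, an inhibitory receptor, from -1.13 to -0.36, and Ifngas1, a noncoding RNA beside the interferon-gamma gene, from 1.20 to 0.12.

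Of the cholesterol synthesis genes 17 of 22 (77.3%) were below 0 in both cell types, against 34.3% of all genes, their medians being -0.52 (MSCs) and -0.33 (CD8 T cells). Of 15 MHC class II presentation genes all 15 were above 0 in CD8 T cells, against 45.4% of all genes. None of them was past 2-fold there, and the median was 0.31. In MSCs 3 were 2-fold higher and 2 lower, where 15.9% and 11.9% of all genes were, with a median of 0.27.

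The markers of other stromal and tissue cells are given beside the shares of all genes, which were 15.9% higher and 11.9% lower in MSCs and 2.6% higher and 1.37% lower in CD8 T cells. At least 2-fold higher in KO MSCs were 7 of 16 measured pericyte and smooth muscle genes, 6 of 17 endothelial, 1 of 17 skeletal muscle, 5 of 11 keratinocyte, 3 of 12 adipocyte, 3 of 7 Schwann cell, 2 of 8 platelet and 3 of 12 mast cell and basophil genes. Lower there were 1 endothelial, 2 keratinocyte and 2 adipocyte genes. In CD8 T cells 2 pericyte, 1 skeletal muscle, 2 platelet and 3 mast cell genes were lower, and 1 adipocyte and 1 mast cell gene were higher. Of 19 MHC class I and 25 unfolded protein response genes, 1 each was 2-fold lower in MSCs and none passed 2-fold in CD8 T cells.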
